A study of Mus musculus with 12 samples.

Results

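The genes described here are targets of the transcription factor p53, with p53's own gene Trp53 among them. They were chosen by name, as genes that p53 is known to control, and with earlier results of these data known. All 38 were found among the 12955 genes of the deposited table, and all 38 passed a filter of 1 FPKM (fragments scaled to transcript length and to mapped fragments) in at least 2 libraries, which left 12059 genes. Rrm2b and Tap2 passed through day 6 libraries alone, being under 1 FPKM in every day 2 library.

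The RNA came from mouse primordial germ cell-like cells, which model in culture the cells that found the germ line, made from J1 male embryonic stem cells and taken by cell sorting out of embryoid bodies. The 12 poly(A) RNA libraries formed 6 groups of 2. Cells given dTAG13 for 2 days were compared with cells given DMSO, the solvent, at day 2. OE cells were compared with EV cells at day 2 and at day 6. The labels write OE and EV without spelling them out, and the series concerns Tex10, a nuclear protein known from ribosome maturation and from pluripotent cells. dTAG13 is a small molecule that brings proteins carrying a matching tag to degradation, and the labels state neither the tagged protein nor the clone used. Nothing in the labels says that the libraries of a group came from separate cultures, so the p-values measure the spread between these libraries, which may be technical.

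The p53 protein binds DNA as a tetramer at response elements made of paired 10-base units and switches on genes that halt the cell cycle, trigger cell death, repair DNA and adjust metabolism. Mdm2, one of these targets, encodes the ubiquitin ligase that marks p53 for degradation, so that p53 is controlled largely at the level of its protein and not of its mRNA. In early embryos and germ cell precursors p53 is known for removing damaged or less fit cells.

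Stretches of 6 member promoters that hold letters of the p53 response element are shown first. Binding was not measured here. RefSeq promoter windows on GRCm38.p6, running from 250 bases before to 50 after the transcription start, were found for 28 of the 38 members; the other 10, Cdc42bpg, Ddb2, Perp, Ptp4a3, Rrm2b, Tap2, Tnfrsf10b, Trp53inp1, Xpc and Zmat3, were not analysed here. Capitals mark a match to the 10-base p53 consensus, whose core is CNNG, and in Ccng1, Ckap2 and Gtse1 also an adjoining unit with at most 2 mismatches and a spacer of at most 1 base. The consensus is its own reverse complement, so a match counts on both strands. Each sequence runs 5′ to 3′ along the gene.
Mdm2, chr10:117710910-117710969, minus strand: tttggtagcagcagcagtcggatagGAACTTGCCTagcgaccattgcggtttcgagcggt
Trp53, chr11:69580259-69580318, plus strand: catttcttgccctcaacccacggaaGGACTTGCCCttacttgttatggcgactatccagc
Ccng1, chr11:40755437-40755506, minus strand: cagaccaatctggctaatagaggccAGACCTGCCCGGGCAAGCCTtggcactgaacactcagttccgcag
Ckap2, chr8:22185978-22186047, minus strand: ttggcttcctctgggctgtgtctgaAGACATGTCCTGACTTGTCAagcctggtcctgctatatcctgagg
Gtse1, chr15:85859920-85859975, plus strand: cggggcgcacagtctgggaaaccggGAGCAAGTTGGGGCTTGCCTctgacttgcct
Ei24, chr9:36797310-36797369, minus strand: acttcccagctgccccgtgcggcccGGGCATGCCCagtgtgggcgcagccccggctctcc
The 10-base unit occurred in 10 of 28 member promoters (35.7%), against 737 of 9186 promoters of the genes tested (8.02%) and 9.55% of all 27025 genes with a promoter. The adjoining pair occurred in 3 of 28 (10.7%), against 0.392% of the genes tested. Target lists of this kind are compiled partly from known p53 binding, so this difference describes the list. Among members higher with dTAG13 in the comparison that follows, 3 of 16 promoters (18.8%) held the unit, against 7 of 12 (58.3%) among the other members. A match is a run of letters and not a shown binding site.

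Tex10 mRNA followed the OE label, at 403 and 378 FPKM in day 2 OE against 119 and 145 in EV, and at 259 and 269 in day 6 OE against 65.7 and 81.5 in EV (changes of 1.57 and 1.84, both called). It had 45.2 and 36.5 FPKM with dTAG13 against 61.7 and 56.8 with DMSO (-0.53, SE 0.15, adjusted p = 0.0425); a degrader acts on protein, so this mRNA does not check that label. The library D2_dTAG replicate 1 stood apart, with 2008 genes at 0 FPKM (15.5%) against 18 to 127 in the other 11 libraries, although 0 members were at 0 there. The counts of members called are given with and without it. Of 9 germ cell markers 8 were in the table, and 7 of them were above 0 in every library; Itgb3, the gene of the sorting marker CD61, was listed at 0 in D2_dTAG replicate 1 alone. Their summed level was 254 to 274 FPKM with dTAG13, against 196 to 232 with DMSO. The single markers did not move alike: Tfap2c and Dppa3 were higher in both dTAG13 libraries, and Prdm1, Prdm14, Dnd1 and Kit were lower in both. Markers of streak and mesoderm (4 of 6 in the table) summed to 0 and 1.80 FPKM with dTAG13 against 2.75 and 2.63 with DMSO, and those of endoderm (2 of 5) to 0 and 1.19 against 1.23 and 1.02. At day 6 they were 5.32 to 6.09 and 4.19 to 6.39 FPKM over the 4 libraries. Neural (2 of 4) and fibroblast (1 of 5) markers summed to at most 4.48 FPKM in any library, and endothelial and blood markers (2 of 5) to 33.6 and 66.3 with dTAG13 against 58.9 and 50.1 with DMSO, nearly all of it Pecam1, which germ cell precursors also express. Mixl1, Eomes, Kdr, Tbx6, Gata4, Gata6, Pax6 and Col1a1 were listed at 0 in D2_dTAG replicate 1. What part these levels have in the results was not tested. In these bulk samples fewer cells of a type and less RNA per cell cannot be told apart.

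**Figure D1:**
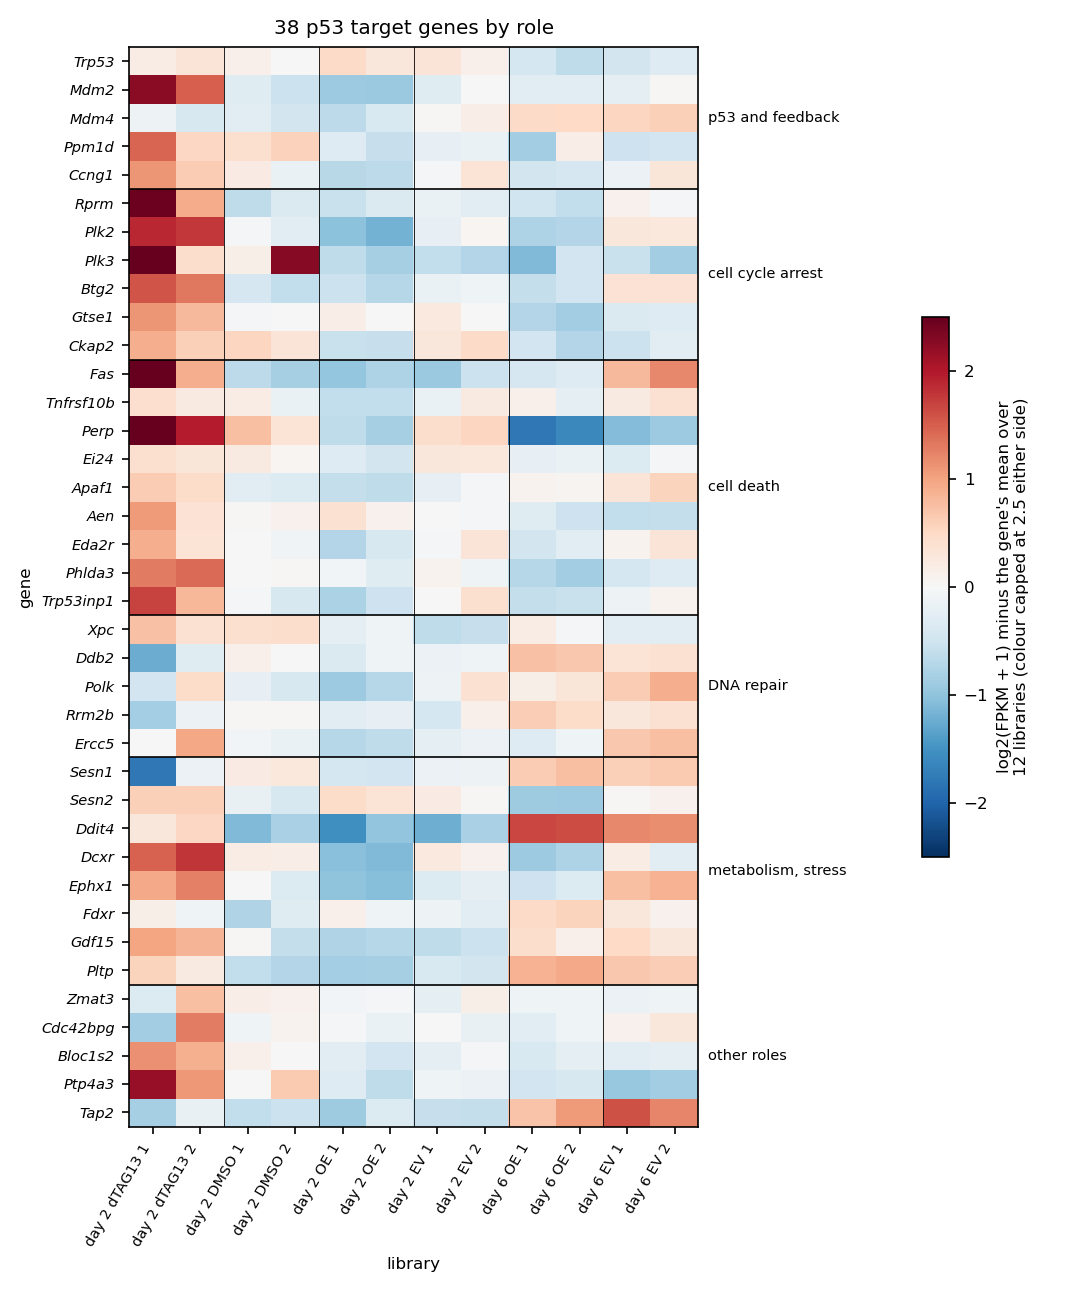
Level of the 38 members in the 12 libraries, as log2(FPKM + 1) minus each gene's mean over all libraries, with rows grouped by role, columns by group, and strong colours capped. The dTAG13 columns are above the mean for most cell cycle, death and metabolism members, and the day 6 columns are below it for Trp53 and Perp.

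With dTAG13, 19 of the 38 members (50%) rose and 0 fell, against 4.01% of all tested genes that rose and 8.21% that fell. The members were chosen with earlier results of these data known, so these counts describe the list. Changes are differences of log2(FPKM + 1), which understate those of low genes, and a gene was called at an adjusted p below 0.05 (limma, Benjamini-Hochberg over all 12059 genes). The median change of the members was 0.76, against -0.127 for all tested genes, and 35 of 38 were above 0. Both dTAG13 libraries lay above both DMSO libraries in 27 members and below both in 3. Over all tested genes this held for 13.8% and 34.7%. The 19 included Mdm2, the death receptor gene Fas and the cell cycle genes Plk2 and Btg2, and did not include Trp53 itself. Of the 5 DNA repair members 0 were called. With so few genes this is near the share of all tested genes, so it is no result about repair genes.

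Of the 5 members that feed back on p53, 2 rose. Mdm2, on chromosome 10 from 117688875 to 117710758 (GENCODE M21, GRCm38), had 559 and 328 FPKM with dTAG13, against 93.2 and 78.8 with DMSO. Both dTAG13 libraries lay far above both DMSO libraries, though they differed from each other, and the change was 2.31 (SE 0.22, adjusted p = 0.000468). Ccng1, which encodes cyclin G1, a partner of a phosphatase that acts on Mdm2, had 194 and 140 FPKM with dTAG13, against 103 and 80.2 with DMSO, a change of 0.85 (SE 0.21, adjusted p = 0.0286) with no overlap. Trp53 had 357 and 393 FPKM with dTAG13, against 341 and 310 with DMSO. The Trp53 libraries did not overlap but lay close together, and the change of 0.21 (SE 0.12, adjusted p = 0.263) did not pass. Mdm4, an Mdm2 relative that blocks p53, changed by 0.10 and Ppm1d, a phosphatase that switches the damage response off, by 0.50, and neither passed.

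Of the 6 cell cycle members, 4 rose. Plk2, a polo-like kinase, had 181 and 168 FPKM with dTAG13, against 46.5 and 39.5 with DMSO, a change of 2.00 (SE 0.13, adjusted p = 0.000205). Btg2, an antiproliferative factor, had 71.5 and 60.3 FPKM with dTAG13, against 17.4 and 15.04 with DMSO, a change of 1.95 (SE 0.14, adjusted p = 0.000205). In both genes the libraries of a group lay close together and the groups were well apart. Rprm, which encodes reprimo, a mediator of G2 arrest, had 20.3 and 6.42 FPKM with dTAG13, against 1.53 and 2.06 with DMSO, a change of 2.18 (SE 0.40, adjusted p = 0.00914). Both dTAG13 libraries were above DMSO, with replicate 1 far above replicate 2. Gtse1, a microtubule-bound protein that itself restrains p53, had 307 and 252 FPKM with dTAG13, against 139 and 143 with DMSO, a change of 0.97 (SE 0.12, adjusted p = 0.00208), with the groups well apart. Ckap2, a spindle protein, had 145 and 116 FPKM with dTAG13, against 111 and 95.98 with DMSO, a change of 0.32 that did not pass though the groups did not overlap. Plk3 had 73.3 and 11.9 FPKM with dTAG13, against 9.48 and 44.9 with DMSO: in each group 1 library was high and 1 low, so the groups overlapped, and the change of 0.49 did not pass.

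Of the 9 cell death members, 5 rose. Fas, the death receptor, had 12.5 and 3.55 FPKM with dTAG13, against 0.528 and 0.356 with DMSO, a change of 2.44 (SE 0.41, adjusted p = 0.00696). Fas was low in DMSO cells and reached a few FPKM or more only in the dTAG13 libraries among those of day 2. Perp, a membrane protein of cell junctions and apoptosis, had 433 and 238 FPKM with dTAG13, against 103 and 77.2 with DMSO, a change of 1.83 (SE 0.25, adjusted p = 0.00257). Trp53inp1, a stress protein that promotes p53 activity, had 81.4 and 44.5 FPKM with dTAG13, against 24.3 and 18.4 with DMSO, a change of 1.47 (SE 0.27, adjusted p = 0.00943). In both genes dTAG13 replicate 1 was the highest of the 4 libraries and dTAG13 replicate 2 was above both DMSO libraries. Phlda3, a repressor of Akt signalling, had 232 and 252 FPKM with dTAG13, against 92.7 and 95.7 with DMSO, a change of 1.35 (SE 0.12, adjusted p = 0.000377). Apaf1, the scaffold of the apoptosome, had 17.9 and 15.7 FPKM with dTAG13, against 8.97 and 8.57 with DMSO, a change of 0.86 (SE 0.17, adjusted p = 0.0123). These last groups were apart and tight. Ei24 had 90.6 and 84.6 FPKM with dTAG13, against 79.9 and 71.03 with DMSO, a change of 0.21 that did not pass. Aen, Eda2r and Tnfrsf10b, whose products act in apoptosis, changed by 0.65, 0.67 and 0.31 and did not pass.

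Of the 8 members tied to metabolism and stress, 6 rose. Dcxr, a carbonyl reductase, had 76.5 and 94.9 FPKM with dTAG13, against 30.6 and 30.5 with DMSO, a change of 1.45 (SE 0.17, adjusted p = 0.00148). Ephx1, an epoxide hydrolase, had 48.2 and 60.1 FPKM with dTAG13, against 24.4 and 19.3 with DMSO, a change of 1.27 (SE 0.16, adjusted p = 0.00198). Both had their higher value in dTAG13 replicate 2, the library without the excess of zeros. Sesn2, a sestrin that restrains mTORC1, had 111 and 111 FPKM with dTAG13, against 64.98 and 55.6 with DMSO, a change of 0.88 (SE 0.11, adjusted p = 0.0021). Pltp, a phospholipid transfer protein, had 71.7 and 57.3 FPKM with dTAG13, against 31.4 and 28.7 with DMSO, a change of 1.07 (SE 0.13, adjusted p = 0.00142). Gdf15, a secreted stress cytokine, had 44.4 and 40.3 FPKM with dTAG13, against 22.2 and 14.1 with DMSO, a change of 1.21 (SE 0.21, adjusted p = 0.00729). In all 3 the groups did not overlap. Ddit4, an mTORC1 inhibitor, had 5.85 and 7.02 FPKM with dTAG13, against 1.62 and 2.21 with DMSO, a change of 1.36 (SE 0.24, adjusted p = 0.00899) at a low level. Sesn1 had 3.58 and 13.2 FPKM with dTAG13, against 17.1 and 17.9 with DMSO, and this -1.20 did not pass (adjusted p = 0.0725). Sesn1 was low in dTAG13 replicate 1 in particular, unlike Sesn2 in the same library. Fdxr, a mitochondrial reductase, changed by 0.55 and did not pass.

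None of the 5 DNA repair members passed. Ddb2, a damage sensor of nucleotide excision repair, had 2.23 and 5.12 FPKM with dTAG13, against 7.28 and 6.68 with DMSO, a change of -0.84 (SE 0.27, adjusted p = 0.0714). Ercc5, a repair nuclease, had 16.3 and 32.5 FPKM with dTAG13, against 15.4 and 14.3 with DMSO, a change of 0.60 in which dTAG13 replicate 2 was the high library. Xpc, which recognises bulky lesions, changed by 0.14, Polk, a lesion-bypass polymerase, by 0.29, and Rrm2b, a ribonucleotide reductase subunit, by -0.52. Of the 5 remaining members, 2 rose. Bloc1s2, a subunit of an organelle biogenesis complex, had 340 and 285 FPKM with dTAG13, against 168 and 153 with DMSO, a change of 0.95 (SE 0.12, adjusted p = 0.00229). Ptp4a3, a phosphatase, had 46.2 and 21.2 FPKM with dTAG13, against 9.46 and 15.3 with DMSO, a change of 1.31 (SE 0.33, adjusted p = 0.0329). Bloc1s2 was tight within groups and Ptp4a3 was not. Zmat3, an RNA-binding protein, Cdc42bpg and Tap2 changed by 0.06, 0.22 and 0.06 and did not pass.

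**Figure D2:**
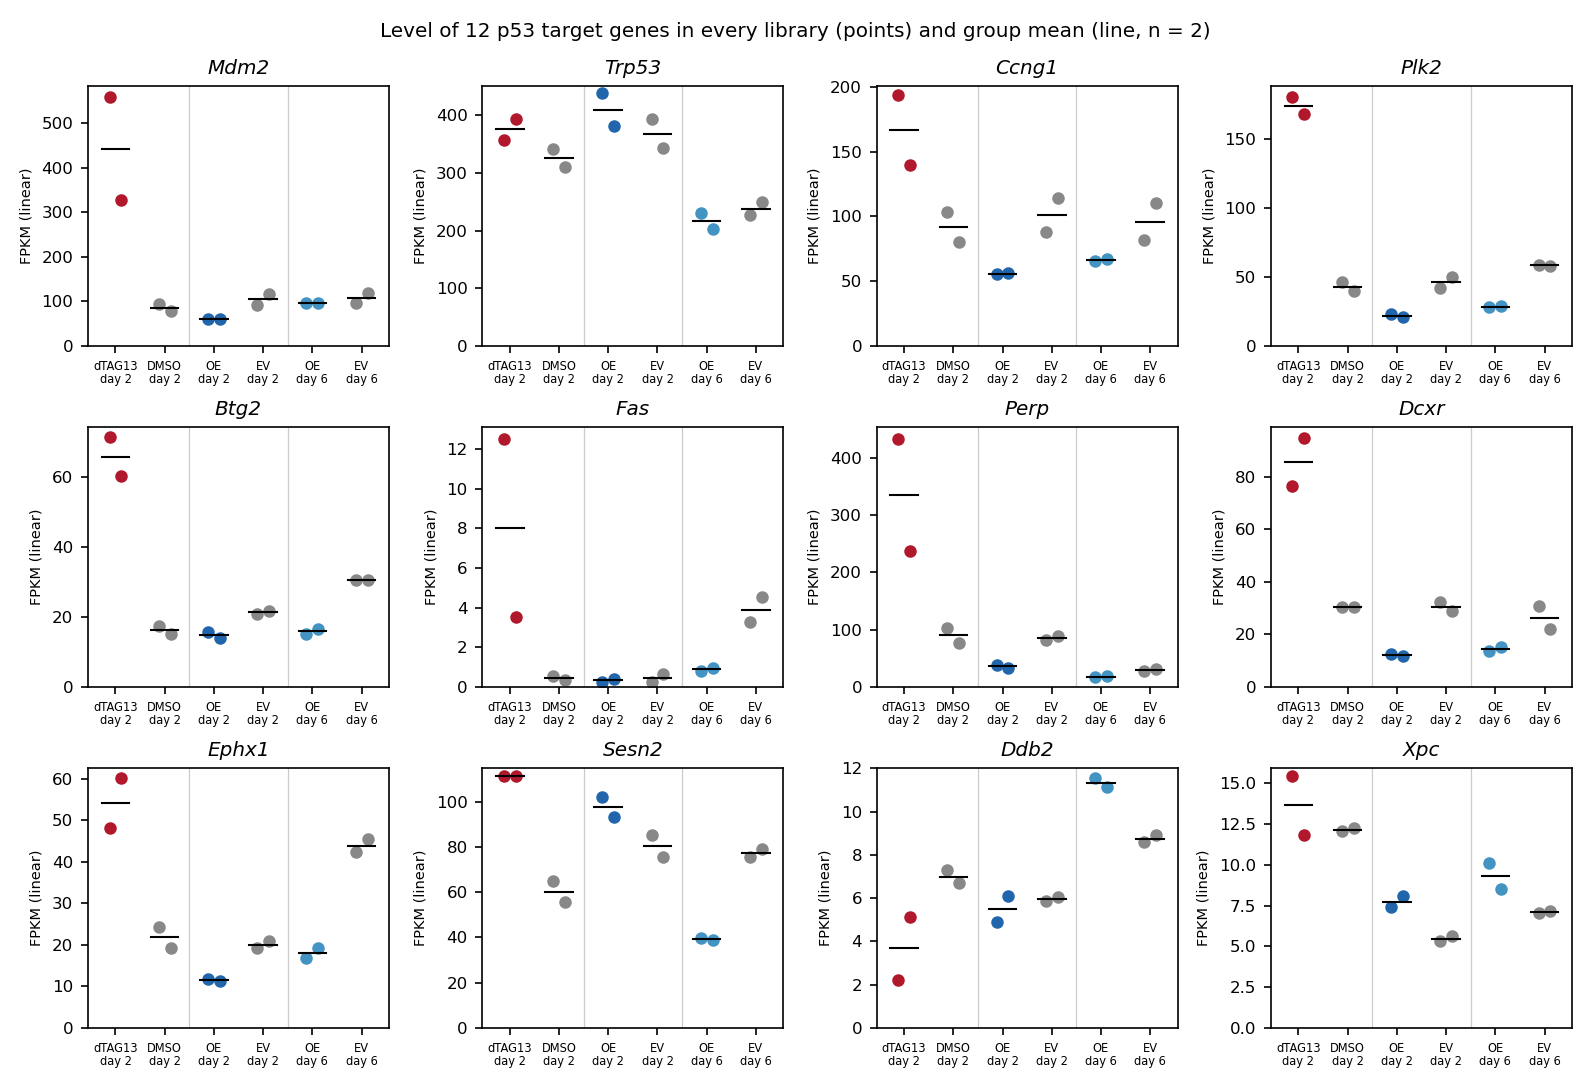
FPKM (linear axis from 0) of 12 members in each library, with points for libraries and lines for group means (n = 2). Mdm2, Plk2, Btg2 and Perp stand highest in the dTAG13 libraries, while Trp53 lies between 310 and 439 FPKM in the day 2 libraries.

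Without D2_dTAG replicate 1, 23 members were called, all higher, while 23.3% of all genes were called in either direction, and 32 of 38 members were above 0; Rprm then changed by 1.42 and Ptp4a3 by 0.77. Without D2_dTAG replicate 2 more members were called, some of them lower, and far more of all genes. Without either D2_DMSO library fewer members were called, and far fewer of all genes. Over all settings the change of Mdm2 lay between 1.92 and 2.69, and that of Ccng1 between 0.61 and 1.08. When the dTAG13 and DMSO libraries were fitted alone, with 2 residual degrees of freedom, 0 members and 0 genes were called, and 19 members, against 10.4% of all genes, had an unadjusted p below 0.05.

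In OE cells at day 2, 4 of 38 members fell and 0 rose, against 0.406% of all tested genes that fell and 0.44% that rose. The median change was -0.29, against 0.036 for all genes, and 33 of 38 were below 0. Both OE libraries lay below both EV libraries in 23 members and above both in 4. Over all tested genes this held for 22.6% and 31.1%, so a lack of overlap in a single gene was common. Germ cell markers summed to 191 and 157 FPKM in OE against 205 and 226 in EV, with Prdm1, Tfap2c and Nanos3 lower and Dnd1, Kit and Dppa3 higher in both OE libraries. Dcxr had 12.5 and 11.97 FPKM in OE, against 32.2 and 28.98 in EV, a change of -1.25 (SE 0.17, adjusted p = 0.0131). Plk2, on chromosome 13 from 110395046 to 110400844 (GENCODE M21, GRCm38), had 23.3 and 20.6 FPKM in OE, against 42 and 50.2 in EV, a change of -1.03 (SE 0.13, adjusted p = 0.0102). Both OE libraries were below both EV libraries in each gene. Ckap2 had 51.6 and 51.1 FPKM in OE, against 93.7 and 107 in EV, a change of -0.95 (SE 0.15, adjusted p = 0.0271). Ei24, an endoplasmic reticulum protein of autophagy and apoptosis, had 54.5 and 50.03 FPKM in OE, against 83.7 and 83.04 in EV, a change of -0.66 (SE 0.13, adjusted p = 0.0465). These groups did not overlap either. The 8 genes flanking Ckap2 on chromosome 8 had a median change of -0.45, whose part in the Ckap2 value was not tested.

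The other members higher with dTAG13, and Trp53, did not pass in OE cells at day 2. Mdm2 had 60.8 and 59.98 FPKM in OE, against 92.9 and 116 in EV, a change of -0.77 (SE 0.22, adjusted p = 0.166). Perp had 38.9 and 33.8 FPKM in OE, against 82.1 and 88.4 in EV, a change of -1.21 (SE 0.25, adjusted p = 0.0588). Ephx1 had 11.7 and 11.2 FPKM in OE, against 19.3 and 20.9 in EV, a change of -0.76 (SE 0.16, adjusted p = 0.0691). In all 3 genes both OE libraries were below both EV libraries. Ccng1 had 55.3 and 56.6 FPKM in OE, against 87.9 and 115 in EV, a change of -0.83. Trp53inp1 had 13.8 and 17.01 FPKM in OE, against 24.96 and 33.1 in EV, a change of -0.87. Btg2 had 15.8 and 13.9 FPKM in OE, against 20.97 and 21.8 in EV, a change of -0.50. The OE libraries were again the lower ones, with no overlap. Apaf1 had 7.05 and 6.82 FPKM in OE, against 9.49 and 10.7 in EV, a change of -0.48. Pltp had 26.6 and 26.8 FPKM in OE, against 37.4 and 35.2 in EV, a change of -0.43. Bloc1s2 had 126 and 110 FPKM in OE, against 131 and 150 in EV, a change of -0.25. Here too the groups did not overlap. Gdf15 had 12.7 and 12.9 FPKM in OE, against 13.8 and 14.8 in EV. Rprm had 1.68 and 2.06 FPKM in OE, against 2.52 and 2.23 in EV. Ptp4a3 had 7.28 and 5.72 FPKM in OE, against 8.64 and 8.41 in EV. These 3 had lower values in both OE libraries by small margins. Phlda3 had 88.7 and 75.05 FPKM in OE, against 99.6 and 86.8 in EV. Gtse1 had 160 and 143 FPKM in OE, against 170 and 144 in EV. Ddit4 had 0.940 and 1.81 FPKM in OE, against 1.40 and 2.17 in EV. In these 3 genes the groups overlapped. Fas had 0.237 and 0.413 FPKM in OE, against 0.273 and 0.674 in EV, overlapping and under 1 FPKM in all 4 libraries. Trp53 had 439 and 381 FPKM in OE, against 393 and 343 in EV, overlapping as well. Sesn2 had 102 and 93.4 FPKM in OE, against 85.3 and 75.5 in EV, and so was the 1 member higher with dTAG13 that lay above 0 in OE.

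The day 2 calls of Ckap2, Ei24 and Dcxr were lost when any 1 of the day 2 OE and EV libraries was left out. Among these fits the Plk2 call was kept only without D2_EV replicate 1. Far fewer of all genes were called in these fits as well. Leaving out D2_dTAG replicate 1, which enters this comparison only through the shared spread, gave 18 calls (1 higher and 17 lower), with 14% of all genes called. The Ei24 call was also lost with a pseudocount of 0.1, without the filter and with a replicate block.

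In OE cells at day 6, 5 of 38 members fell and 0 rose, against 1.79% of all tested genes that fell and 1.92% that rose. The median change was -0.28, against 0.052 for all genes. Both OE libraries lay below both EV libraries in 21 members and above both in 8. Over all tested genes this held for 29.5% and 39.3%, so a lack of overlap was again common. Germ cell markers summed to 243 and 233 FPKM in OE against 159 and 144 in EV, of which Kit made 96.0 and 92.6 against 46.7 and 41.4, while Nanos3 was lower in OE, at 3.89 and 2.84 against 9.22 and 6.29. The endothelial and blood markers summed to 113 and 110 FPKM in OE against 74.0 and 64.2 in EV. Ephx1 had 16.8 and 19.2 FPKM in OE, against 42.2 and 45.6 in EV, a change of -1.24 (SE 0.16, adjusted p = 0.0055). Plk2 had 27.98 and 28.8 FPKM in OE, against 58.8 and 57.95 in EV, a change of -1.01 (SE 0.13, adjusted p = 0.00511). The libraries of a group were nearly equal in both genes, and the groups were apart. Sesn2 had 39.5 and 38.9 FPKM in OE, against 75.5 and 79.2 in EV, a change of -0.96 (SE 0.11, adjusted p = 0.00355). Btg2 had 15.2 and 16.5 FPKM in OE, against 30.6 and 30.6 in EV, a change of -0.91 (SE 0.14, adjusted p = 0.0113). Dcxr had 13.8 and 15.4 FPKM in OE, against 30.7 and 22.1 in EV, a change of -0.80 (SE 0.17, adjusted p = 0.0359). Dcxr varied most within EV, and it did not pass with median-ratio scaling or with a replicate block.

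Fas had 0.817 and 0.941 FPKM in OE, against 3.26 and 4.54 in EV, a change of -1.37 (SE 0.41, adjusted p = 0.107), with no overlap between the groups. Perp had 16.9 and 19.1 FPKM in OE, against 27.99 and 31.7 in EV, a change of -0.70. Mdm2 had 96.5 and 95.5 FPKM in OE, against 97.2 and 118 in EV, a change of -0.16. None of the 3 passed, and Mdm2 in OE lay just under the lower EV library. Gtse1 had 86.1 and 78.5 FPKM in OE, against 111 and 115 in EV, a change of -0.45. Phlda3 had 56.3 and 50.4 FPKM in OE, against 68.1 and 74.6 in EV, a change of -0.41. Ccng1 had 65.4 and 67.4 FPKM in OE, against 81.5 and 111 in EV, a change of -0.51. All had the OE libraries below the EV libraries without passing. Trp53inp1 had 16.1 and 16.4 FPKM in OE, against 22.6 and 26.2 in EV. Apaf1 had 11.97 and 11.7 FPKM in OE, against 14.1 and 16.98 in EV. Rprm had 1.79 and 1.56 FPKM in OE, against 3.21 and 2.82 in EV. In these genes too the OE libraries were the lower ones without passing. Trp53 had 231 and 202 FPKM in OE, against 227 and 250 in EV. Gdf15 had 30.2 and 24.1 FPKM in OE, against 31.4 and 26.7 in EV. Bloc1s2 had 118 and 130 FPKM in OE, against 128 and 131 in EV. The groups overlapped in these 3 genes. Ckap2 had 54.4 and 45.5 FPKM in OE, against 52.6 and 63.1 in EV. Ei24 had 59.7 and 61.2 FPKM in OE, against 53.95 and 67.5 in EV. Both genes overlapped at day 6 where they had been apart at day 2. Pltp had 89.5 and 95.2 FPKM in OE, against 78.2 and 75.3 in EV. Ddit4 had 16.7 and 16.3 FPKM in OE, against 11.8 and 11.5 in EV. Ptp4a3 had 6.48 and 6.93 FPKM in OE, against 4.37 and 4.69 in EV. These 3 were higher in both OE libraries without passing.

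At day 6, the calls of Plk2, Btg2 and Dcxr were lost when any 1 of the day 6 OE and EV libraries was left out. Among these fits the calls of Ephx1 and Sesn2 were kept only without D6_EV replicate 1. Far fewer of all genes were called in these fits as well. Leaving out D2_dTAG replicate 1 gave more calls, all lower, and more of all genes called. Sesn2 was the 1 member (of 38, against 0.232% of all genes) whose OE effect differed between days, being 0.28 at day 2 and -0.96 at day 6, a difference of -1.24 (SE 0.16, adjusted p = 0.02). That call was lost when any 1 of the 8 OE and EV libraries was left out, and without D2_dTAG replicate 1 there were 6 members called, against 11.1% of all genes.

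**Figure D3:**
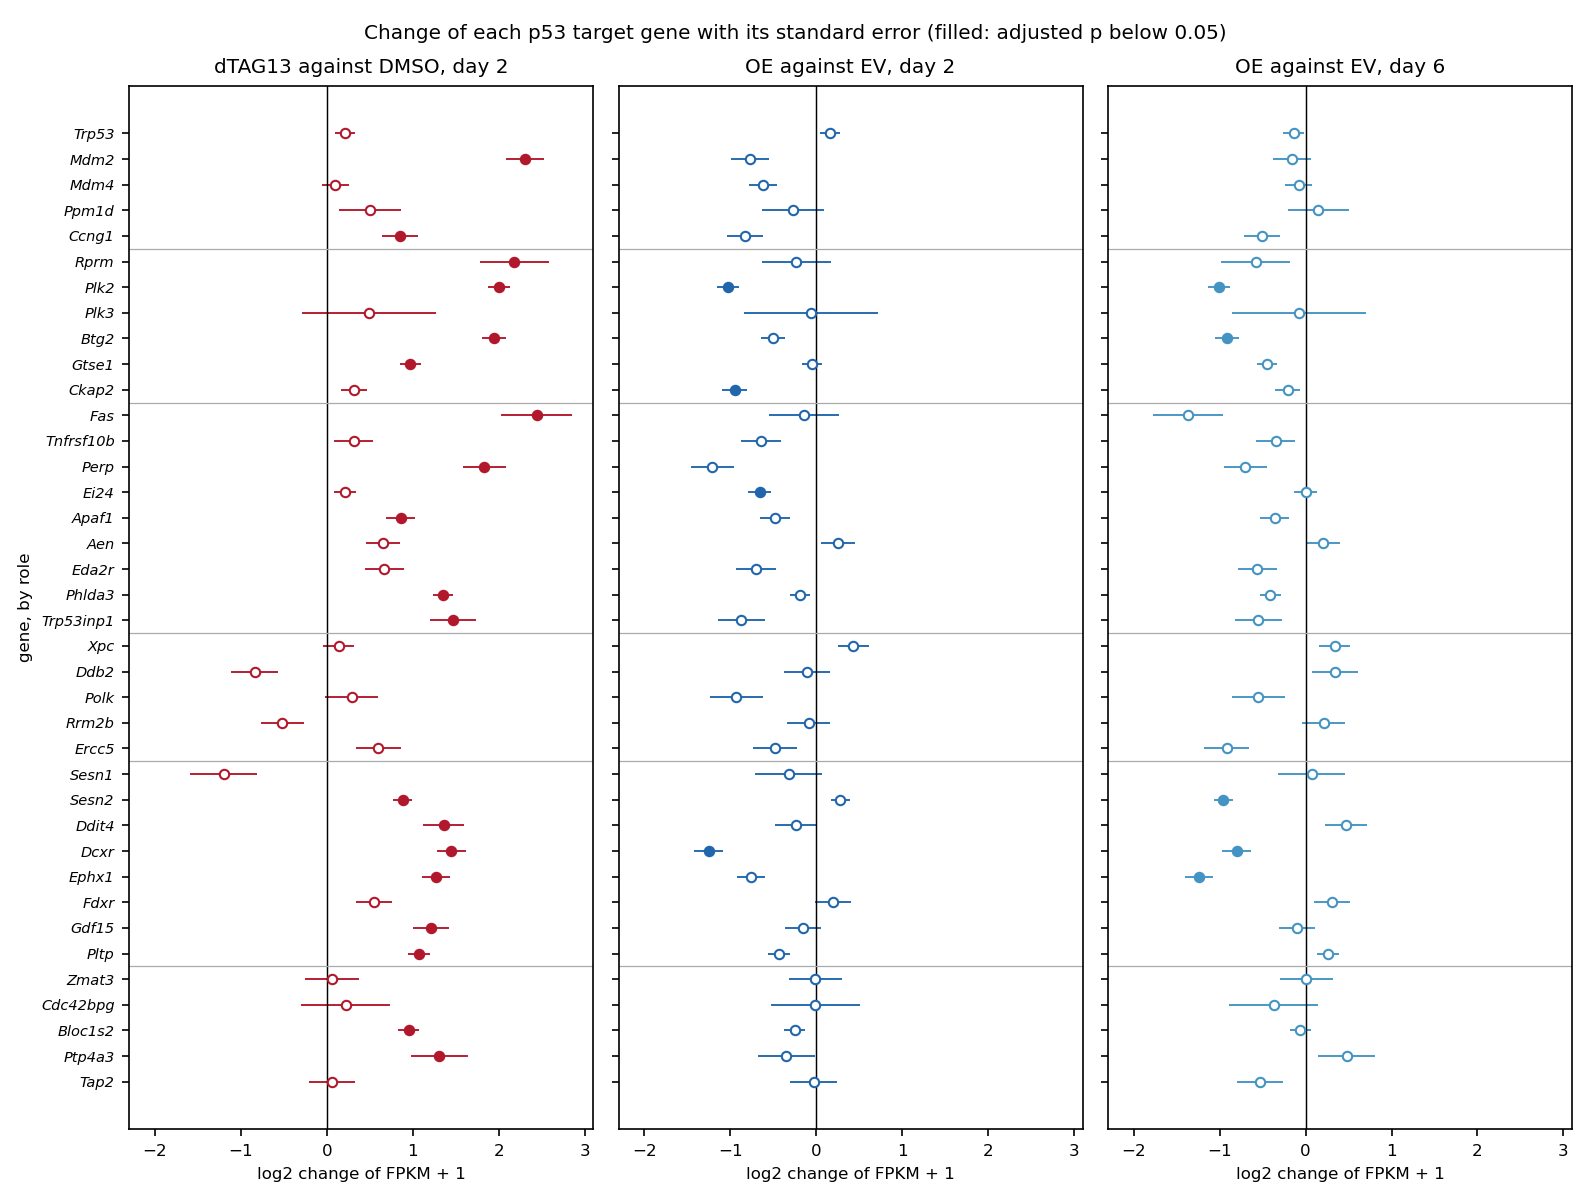
Change in log2(FPKM + 1) of the 38 members in dTAG13 against DMSO at day 2 and in OE against EV at day 2 and day 6; bars are standard errors and filled points have an adjusted p below 0.05. Filled points lie above 0 in the dTAG13 panel (19) and below 0 in the OE panels (4 and 5).

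The dTAG13 and OE comparisons share no library, so the signs of their changes can be set side by side. Of the 19 members higher with dTAG13, 18 were below 0 in OE at day 2 (94.7%), Sesn2 being the exception, against 64.8% of all 483 genes higher with dTAG13. At day 6, 16 of the 19 were below 0 (84.2%), against 70.2% of the 483. Of all 38 members, whether higher with dTAG13 or not, 33 were below 0 in OE at day 2 and 26 at day 6. Without D2_dTAG replicate 1, the members higher with dTAG13 numbered 23, of which 22 were below 0 in OE at day 2 (95.7%, against 63.5% of all 764 such genes) and 19 at day 6 (82.6%, against 69.6%). All 5 members that fell in OE at day 6 were among the 19, against 21.8% of all genes that fell there. At day 2, 2 of the 4 that fell (Dcxr and Plk2) were among them, against 34.7% of all genes that fell. The base for both days is the list itself, as 19 of all 38 members (50%) were higher with dTAG13. The day 2 share equals that base. The members were chosen with earlier results of these data known, so the shares in this comparison describe the list.

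**Figure D4:**
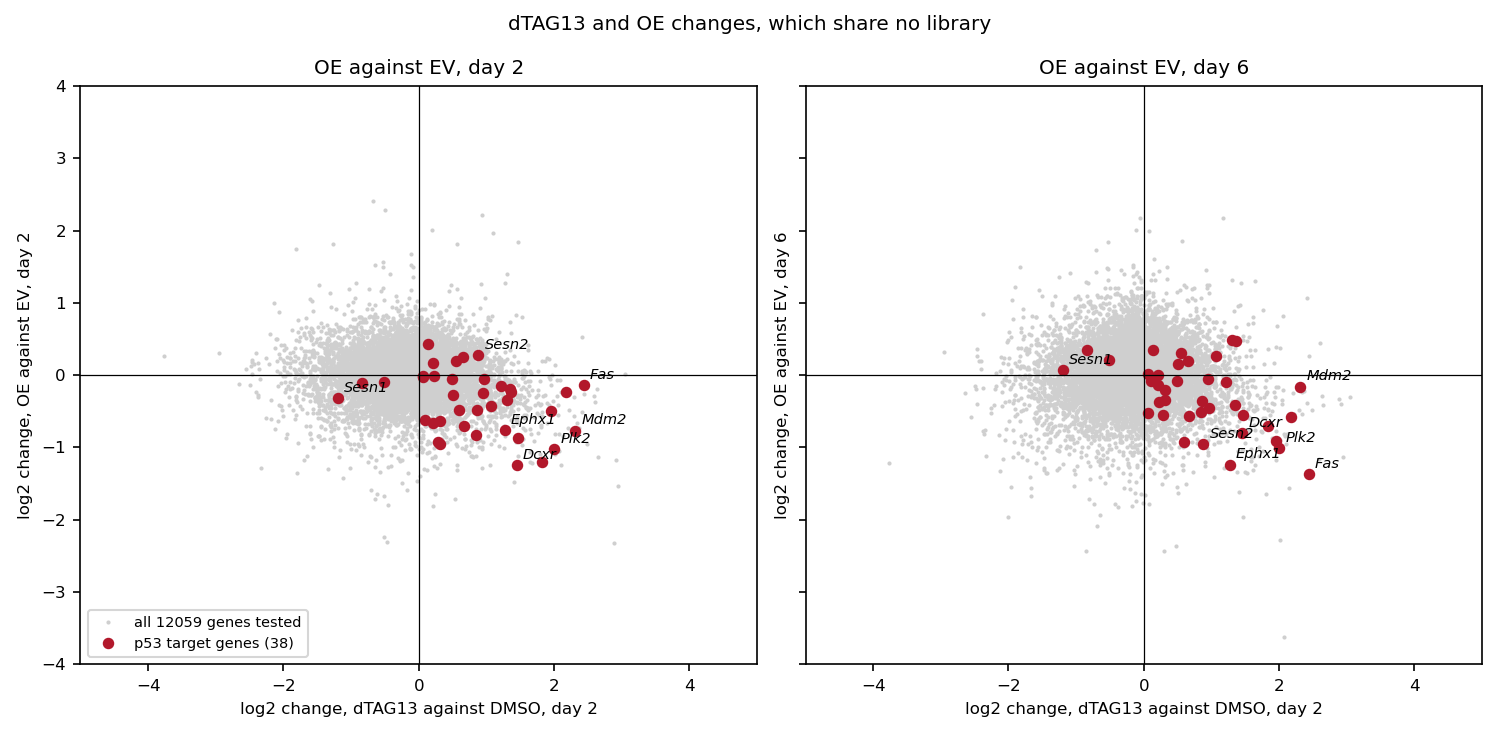
Change with dTAG13 (horizontal) against change in OE (vertical), both in log2(FPKM + 1), for the 38 members over all 12059 tested genes. In both panels 35 members lie to the right of 0, and 33 lie below 0 at day 2 and 26 at day 6.

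Between day 6 and day 2, members moved in both directions. In OE cells, 12 of 38 rose and 6 fell, against 17.5% of all tested genes that rose and 14.7% that fell. In EV cells, 9 rose and 6 fell, against 13.3% and 10.5% of all tested genes. Trp53 itself fell, to 231 and 202 FPKM in day 6 OE against 439 and 381 in day 2 OE, a change of -0.92 (SE 0.12, adjusted p = 0.000424). In EV it had 227 and 250 FPKM at day 6 against 393 and 343 at day 2, a change of -0.62 (SE 0.12, adjusted p = 0.00495). The days did not overlap in either line. Perp fell by 0.98 in OE and by 1.49 in EV, and Phlda3 and Gtse1 fell in both. The Phlda3 call in EV (-0.38, adjusted p = 0.048) was lost with a pseudocount of 0.1 and with a replicate block. Quantile normalization and median-ratio scaling lost it as well. Ddit4 rose by 2.91 in OE, with 16.7 and 16.3 FPKM at day 6 against 0.940 and 1.81 at day 2, and also rose in EV (adjusted p = 0.000368). Pltp, Ephx1, Gdf15, Apaf1 and Tap2, a peptide transporter of antigen presentation, also rose in both. Tap2 is counted among the members that rose in OE and in EV, and Rrm2b among those that rose in OE. Both were kept by the filter through their day 6 levels alone, so their rise was favoured by the filter and carries no weight. Fas rose in EV (1.74, adjusted p = 0.0139), to 3.26 and 4.54 FPKM against 0.273 and 0.674, and in OE changed by 0.51 without passing; the difference of -1.23 did not pass either (adjusted p = 0.501). Mdm2 rose by 0.66 in OE and changed by 0.04 in EV, where it did not pass; the difference of 0.62 did not pass (adjusted p = 0.531), and the OE call was lost with a pseudocount of 0.1, with a replicate block and without any 1 of its 4 libraries. Leaving out any 1 library of the groups compared gave fewer calls in OE and in EV, among members and among all genes. Leaving out D2_dTAG replicate 1 gave more of both.

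The 2 day 2 control groups, DMSO and EV, served as a background. Between them 0 members were called (0.39% of all genes were), 5 had an unadjusted p below 0.05 (8.92% of all genes did), and the median change was 0.01; Xpc had the smallest adjusted p (0.06), at 1.02. Tex10 mRNA was lower in DMSO cells, a change of -1.13 (SE 0.15, adjusted p = 0.0104). Without D2_dTAG replicate 1, 5 members were called (3 higher and 2 lower), against 8.08% of all genes.

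Of 36 further p53 pathway genes, 32 passed the filter, 16 of them targets and 16 regulators or partners of p53. These too were listed with earlier results of these data known, so they are no independent check of the members. With dTAG13, 8 of the 16 targets (50%) rose and 0 fell, against 4.01% of all tested genes that rose and 8.21% that fell. Cdkn1a, the cell cycle inhibitor p21, had 82.3 and 69.9 FPKM with dTAG13, against 31.4 and 30.6 with DMSO, a change of 1.26 (SE 0.12, adjusted p = 0.000487). Pmaip1, the BH3-only death protein Noxa, had 57.6 and 23.6 FPKM with dTAG13, against 11.6 and 10.7 with DMSO, a change of 1.65 (SE 0.34, adjusted p = 0.0162). Bbc3, the BH3-only protein Puma, had 29.4 and 20.6 FPKM with dTAG13, against 12.4 and 13.4 with DMSO, a change of 0.88 (SE 0.24, adjusted p = 0.0421). All 3 had their groups apart. Without D2_dTAG replicate 1, Pmaip1 changed by 1.02, and Bbc3 by 0.64 with its call lost (adjusted p = 0.0521); the Bbc3 call was also lost with a pseudocount of 0.1, with either replicate block, with only the dTAG13 and DMSO libraries fitted and without either DMSO library. Pmm1, a phosphomannomutase, had 719 and 695 FPKM with dTAG13, against 333 and 314 with DMSO, a change of 1.13 (SE 0.09, adjusted p = 0.000322). Bax, the pore-forming death effector, had 476 and 575 FPKM with dTAG13, against 456 and 454 with DMSO, and Tigar, a regulator of glycolysis, had 36.5 and 23.5 FPKM with dTAG13, against 35.1 and 35.9 with DMSO; neither passed. Among the regulators, Trp73, a p53 relative, rose by 1.50 (SE 0.19, adjusted p = 0.00197) and Ep300, a histone acetyltransferase, fell, at -0.99 (SE 0.23, adjusted p = 0.0269). In OE, 7 of the 16 targets were above 0 and 9 below at day 2 (median -0.10), and 8 were above and 8 below at day 6 (median 0.09). Cdkn1a fell in OE at day 2 (-0.71, SE 0.12, adjusted p = 0.0321) with 24.3 and 21.8 FPKM against 39.7 and 36.9 in EV. Cpt1c fell there by 0.75 (adjusted p = 0.0465). Both calls were lost when any 1 of the day 2 OE and EV libraries was left out. The Cpt1c call was lost without the filter, with quantile normalization, with median-ratio scaling and with a replicate block. At day 6 Gadd45a rose in OE (0.76, SE 0.17, adjusted p = 0.0381), and Trp73 (-1.34, SE 0.19, adjusted p = 0.00764) and Pmm1 (-0.51, SE 0.09, adjusted p = 0.0197) fell. Each of these calls was lost when any 1 of the day 6 OE and EV libraries was left out. The Gadd45a call was also lost with a replicate block. Pmaip1 had 74.8 and 70.7 FPKM in OE, against 25.5 and 32.96 in EV, a change of 1.30 (SE 0.34, adjusted p = 0.0697), the opposite in sign to its day 2 change of -1.20; neither passed. Gadd45a was also the 1 gene of the 32 called between DMSO and EV (1.09, adjusted p = 0.0254).

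Plk3, Ddb2, Polk and Pltp overlap another coding gene in the annotation, and the strand used for counting is not given in the sources, so reads of the pair cannot be told apart.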

How the data were processed

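Poly(A) RNA of cells sorted on CD61 and SSEA1 was measured, per the labels and the series' design text. The submitters' processing notes name FastQC 0.10.1, Trim Galore 0.6.3, cutadapt, STAR 2.7.6a and Cufflinks 2.2.1 with mm10. The authors deposited FPKM with 1 added, as their digits show (7 or more digits in 90.1% of the values from 1.1 to 2 and in 0% of those from 2 to 10), and that 1 was taken off again. Depth is unknown, since low values show no whole-read steps, and no intervals were made.

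The 12059 genes past the filter were compared by limma 3.58.1 (R 4.3.3), taking log2 of FPKM plus 1. The prior variance followed a trend, and a single model held the 6 groups, with 6 residual and 3.86 prior degrees of freedom. Adjustment was by Benjamini-Hochberg over these genes, at 0.05. The code was tested on simulated data. Results were recomputed with a pseudocount of 0.1, without the filter, under median-ratio scaling or quantile normalization, with a replicate block, on the compared groups alone, and without each library.

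Trp53, Mdm2 and every member called with dTAG13 or in OE are given in all libraries. Of the other pathway genes, up to 4 a direction were named by size of change, and 5 by choice. Members and lists were chosen with earlier results of these data known. Promoters came from RefSeq and positions from GENCODE M21. Python 3.11.15, pandas 2.3.3, numpy 2.4.6 and matplotlib 3.10.9 served for tables and figures.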

Additional observations from a re-analysis of the deposited data

Results flagged for a closer look

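In the model of all libraries the OE effect on Sesn2 differed between days. This was the only member for which the test of that difference passed, against 0.232% of all genes. The call was lost when any 1 of the OE and EV libraries was left out. Sesn2 changed in OE by -0.96 at day 6 and 0.28 at day 2, a difference of -1.24 (SE 0.16, adjusted p = 0.02) in limma's test. Its day 2 change alone did not pass that test (adjusted p = 0.346). At day 6, Sesn2 had 39.5 and 38.9 FPKM in OE cells against 75.5 and 79.2 in EV cells. At day 2 the OE cells had 102 and 93.4 FPKM, against 85.3 and 75.5 for EV cells.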

How the results depend on the processing

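The counts of members called moved with the libraries and groups fitted. For dTAG13 the count was 0 when only the groups compared were fitted, and 11 to 30 when 1 library was left out. For OE at day 2 it was 7 with median-ratio scaling (1.42% of all genes called) and 13 with only the groups compared (8.56%). For OE at day 6 it was 10 with quantile normalization (8.69%) and 18 with only the groups compared (28.4%). For the difference of OE effects it was 7 with only the groups compared (9.72%). Day 6 against day 2 gave 9 to 23 in OE and 5 to 24 in EV when 1 library was left out. DMSO against EV gave 1 with quantile normalization, 1 with median-ratio scaling, 1 with only the groups compared and 0 to 5 when 1 library was left out. Mdm2 in EV, day 6 against day 2, was 0.04 and was -0.12 without D2_EV replicate 1, -0.10 without D6_EV replicate 2 and 0.20 without D2_EV replicate 2, and 0.21 with quantile normalization. The cause of these shifts was not tested. Over all genes, dTAG13 calls were 1473 in the model of all groups, 0 with only the groups compared, 202 to 7262 when 1 library was left out; quantile normalization shifted the median of all genes to -0.002, against -0.127.

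Over 15 pairs of groups, the deviations of same-numbered replicates had correlations from -0.135 to 0.252. Such values cannot decide whether same-numbered libraries were paired, and the labels state no pairing. A replicate block gave 19 calls for dTAG13, 3 for OE at day 2, 4 for OE at day 6, 1 for the difference of OE effects, 17 for OE and 15 for EV between days, and 0 for DMSO against EV. Crossed pairing, chosen after seeing the data, gave 20 for dTAG13 and 6 for OE at day 6. With 2 libraries a group and unknown depth, the precision of low members such as Fas, Tap2 and Rrm2b is not known.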
